A study of Mus musculus with 4 samples.

Results

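The integrin and laminin genes were followed across the lineages of the embryonic mouse kidney. The members were chosen by symbol: every gene counted in any library whose name is Lama, Lamb or Lamc with a single digit, or Itga or Itgb with a number, leaving out Itga8 and Itgb1. This gave 28 of 27932 genes, of which 11 encode laminin chains, 10 integrin alpha chains and 7 integrin beta chains. Kidneys of E14.5 embryos were profiled by Drop-seq, which tags the 3' end of each transcript in single cells captured with barcoded beads. There were 2 wildtype libraries and 2 mutant libraries, the mutants carrying the genotype Hoxa9,10,11 and Hoxd9,10,11 -/-, and both groups came from a mixed background that was mostly CD-1 and 129. The labels do not say whether the libraries of a group came from separate embryos, or how many embryos were pooled, so the p-values measure the spread between libraries only.

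Laminins are trimers of an alpha, a beta and a gamma chain that polymerise into the sheet of every basement membrane. Integrins are receptors of an alpha and a beta chain that hold a cell to laminin, collagen, fibronectin or other matrix proteins. In the developing kidney the mesenchyme turns into epithelium as it builds a basement membrane, and the laminin alpha chain changes along the nephron and in the glomerulus.

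The tables held 15144 cell barcodes, and 9817486 and 24834658 counts were present in wildtype 1 and 2, and 3572346 and 21350698 in mutant 1 and 2. After filters on mitochondrial share and doublets, 1852, 4788, 810 and 4329 cells were kept, with medians between 2394 and 3595 UMIs (unique molecular counts) per cell. Mitochondrial share passed the limit of 10% in 7.76% and 9.06% of wildtype barcodes and in 19.6% and 29.1% of mutant barcodes. Only 3 barcodes occurred in more than 1 library. All 6 targeted Hox genes were still counted in every library (Hoxd11 at 76.7 and 53.7 CPM in wildtype and 113 and 197 in mutant, CPM being counts per 1000000 UMIs), and with the altered stretch of each gene not given in the labels these 3' counts check no genotype.

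A cell was assigned to a lineage where it held UMIs of at least 3 distinct markers of that lineage and more than of any other, and no member served as a marker. This gated 8428 of 11779 cells, and the 3351 ungated cells were shallower, with a median of 1268 UMIs. Every marker list reached at least 6.01 times its level in the other gates, the smallest being early nephron, and no gate had a marker at 0. The gates were set with these same markers, so these ratios do not check the gates. Other lists were present too: with libraries pooled, mural cells held stroma markers at 1520 CPM, beside 2271.5 of their own. Podocytes held stroma markers at 1480, beside 5730.5, and loop cells held early nephron markers at 1433, beside 3652. A background level was read from blood cells, which should make little laminin: Lamb1 stood at 15.7 CPM in erythroid-gated cells and 12.8 in immune-gated cells, against 127 over all kept cells. Those values rest on 5 and 7 UMIs and have exact Poisson intervals of 5.09 to 36.6 and 5.14 to 26.3, which cover counting error only. The source of those UMIs was not tested.

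**Figure D1:**
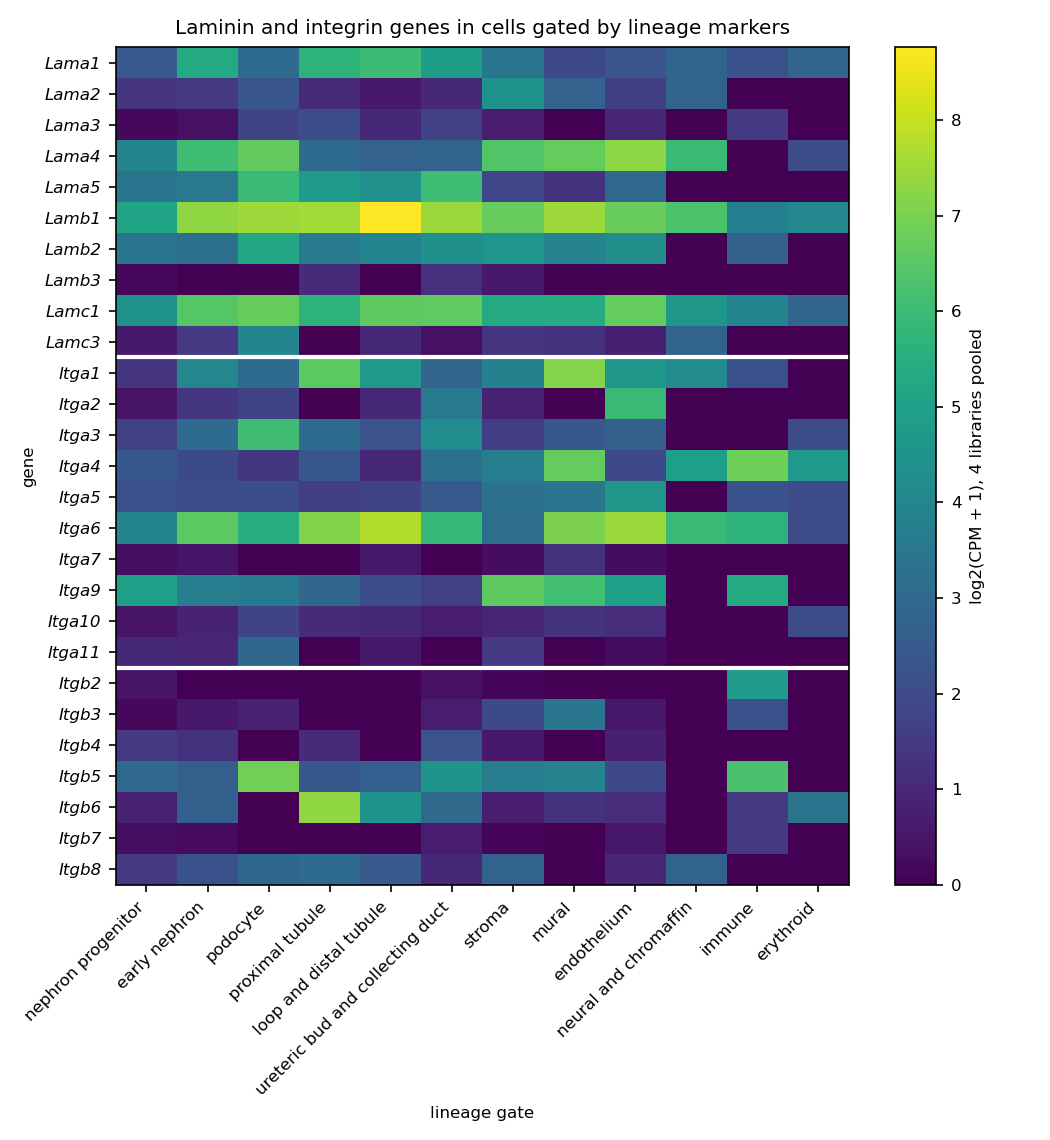
Level of laminin genes (top block), integrin alpha genes (middle block) and integrin beta genes (bottom block) in each lineage gate, as log2 of CPM plus 1, with the 4 libraries pooled. Single bright cells stand out for Itgb6 in proximal tubule, Itga2 in endothelium and Itgb2 in immune cells, while Lamb1 and Lamc1 are present in every renal gate.

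The DNA before the starts of 4 members is shown because each was high in a different set of lineages: Itga1 (proximal tubule), Itga2 (endothelium), Itgb5 (podocyte) and Lama5 (ureteric bud and podocyte). The 200 bases directly upstream of the RefSeq start are given 5' to 3' on the gene's strand (GRCm38, which is mm10), and each window ends where the GENCODE vM21 gene begins. Capitals mark the GC box, GGGCGG on either strand. The windows are Itga1 at chr13:115101965-115102164 (minus strand), Itga2 at chr13:114932101-114932300 (minus strand), Itgb5 at chr16:33829465-33829664 (plus strand) and Lama5 at chr2:180225860-180226059 (minus strand).
Itga1: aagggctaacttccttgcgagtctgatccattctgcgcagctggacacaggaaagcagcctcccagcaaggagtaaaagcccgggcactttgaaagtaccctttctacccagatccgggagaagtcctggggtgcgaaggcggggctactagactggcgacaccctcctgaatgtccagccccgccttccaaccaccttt
Itga2: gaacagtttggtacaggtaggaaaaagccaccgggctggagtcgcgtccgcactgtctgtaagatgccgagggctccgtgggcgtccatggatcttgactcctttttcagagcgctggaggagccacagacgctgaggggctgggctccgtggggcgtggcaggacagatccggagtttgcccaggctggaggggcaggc
Itgb5: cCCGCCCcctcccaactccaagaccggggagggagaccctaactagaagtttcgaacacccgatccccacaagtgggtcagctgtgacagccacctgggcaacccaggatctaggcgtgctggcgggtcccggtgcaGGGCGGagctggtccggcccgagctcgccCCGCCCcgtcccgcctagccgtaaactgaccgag
Lama5: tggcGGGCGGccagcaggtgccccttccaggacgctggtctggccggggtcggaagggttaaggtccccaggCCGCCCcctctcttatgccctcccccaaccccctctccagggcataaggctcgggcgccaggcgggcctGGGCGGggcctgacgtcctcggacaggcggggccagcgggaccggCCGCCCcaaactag
The Itgb5 and Lama5 windows held 3 and 4 GC boxes, and the Itga1 and Itga2 windows held none. Among all 32851 promoter windows of this length, 31.05% held at least 1. GC content was 57.5% for Itga1, 63% for Itga2, 68% for Itgb5 and 74% for Lama5, beside a median of 53% over all windows. A match describes these letters only; 17 of the 28 members had a promoter entry.

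Which lineages carry which chain was asked first, within libraries. Counts were summed per lineage and library for the 5 lineages with at least 25 cells in all 4 libraries, and each lineage was set against the mean of the other 4 with library as a block (edgeR's quasi-likelihood test, Benjamini-Hochberg adjusted p under 0.05 as the threshold). Of the 28 members, 16 passed the filter on low counts and 12 did not. The tested members called higher were 4 in early nephron (20.6% of all 10811 genes were called higher there), 7 in endothelium (21.2%), 6 in loop and distal tubule (15.2%), 5 in stroma (23.3%) and 8 in ureteric bud and collecting duct (13.5%). The shares of members called higher were above that background in endothelium, loop and ureteric bud, and near or modestly above it in early nephron and stroma.

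Podocytes, proximal tubule, nephron progenitors and immune cells reached 25 cells in both wildtype libraries but not in mutant 1, which held 22, 5, 0 and 23 of them. A second contrast over 9 lineages, added after the data were seen, used the wildtype libraries alone. It tested 16 members among 11174 genes. Members called higher numbered 6 in early nephron (background 15.9%), 6 in endothelium (18.1%), 2 in immune cells (10.1%), 6 in loop and distal tubule (10.8%), 1 in nephron progenitors (20.2%), 4 in podocytes (7.08%), 7 in proximal tubule (12.3%), 4 in stroma (19.8%) and 7 in ureteric bud and collecting duct (14.6%). Nephron progenitors were the lineage with the fewest members called higher, and there 5 of 16 were called lower. Levels below are CPM of a lineage's own UMIs, unscaled, and a fold sets a lineage against all other tested wildtype lineages pooled.

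Among the laminin alpha chains, Lama1, the early epithelial chain, was called higher in early nephron, loop and distal tubule, and ureteric bud. The ureteric bud call was lost without wildtype 1, wildtype 2 or mutant 2 (edgeR adjusted p 0.0795, 0.125 and 0.0877). Its level in loop and distal tubule was 75.4 and 29.95 CPM in wildtype and 46.9 and 86.3 CPM in mutant, and in endothelium 10.3, 1.73, 9.84 and 2.71. Every loop value lay above every endothelial value. The log2 difference was 1.96 ± 0.24 (SE) for loop and -2.77 ± 0.36 for endothelium, with edgeR adjusted p of 7.68e-08 and 1.04e-07.

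Lama4, the chain of vascular and mesenchymal basement membranes, showed the reverse (chr10:38965515-39110188, plus strand). It stood at 102 and 67.6 in wildtype endothelium and 143 and 218 in mutant endothelium, against 0 and 2.85 in wildtype and 20.1 and 7.85 in mutant loop cells. The groups did not overlap, and the log2 difference of endothelium from the other lineages was 2.74 ± 0.19. Stroma (1.61 ± 0.19) and early nephron (1.49 ± 0.19) were called higher as well. The early nephron levels ran from 38.3 to 101.

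Lama5, the chain of mature tubular and glomerular basement membranes, was highest in ureteric bud and collecting duct among the 5 lineages, at 66.0 and 56.9 in wildtype and 88.7 and 93.2 in mutant. Stroma lay between 1.59 and 4.53 in the 4 libraries. The log2 difference was 2.92 ± 0.24 for ureteric bud and -2.62 ± 0.31 for stroma. In wildtype podocytes it reached 116 and 39.3, from 11 and 7 UMIs, above ureteric bud in wildtype 1 and below it in wildtype 2. The 9-lineage contrast called both lineages higher, podocytes by 2.76 ± 0.59 and ureteric bud by 2.75 ± 0.30. It also called proximal tubule higher, by 1.94 ± 0.57.

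Lama2, the muscle and mesenchymal chain, fell under the filter of the lineage contrast. It was mainly stromal: 277 of its 366 UMIs lay in stroma-gated cells. Wildtype stroma held 18.7 and 9.24 against 1.83 and 1.10 in the other tested wildtype lineages, 10.2-fold and 8.39-fold higher. With no filter on low counts, added after the data were seen, its stromal log2 difference was 3.90 ± 0.33, an edgeR adjusted p of 1.05e-30. P-values of that fit cannot be set beside those of the filtered fit. For stromal Lama4 the log2 difference was 1.61 with the filter and 1.65 without, while the edgeR adjusted p went from 4.65e-08 to 1.38e-27. Lama3, the chain of epidermal laminins, had 38 UMIs in all and no gate above 3.18.

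The make-up of the alpha chains followed the lineages, as shares of each gate's alpha-chain UMIs. The shares are set against each other between gates, not between genes. In wildtype, Lama4 made up 80.3% in endothelium, 71.5% in stroma, 49.8% in early nephron and 6.4% in ureteric bud. Lama5 made up 62% in ureteric bud, 56.3% in podocytes, 48.8% in proximal tubule and 5.5% in stroma, and the podocyte and proximal tubule shares rest on 32 and 43 UMIs.

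**Figure D2:**
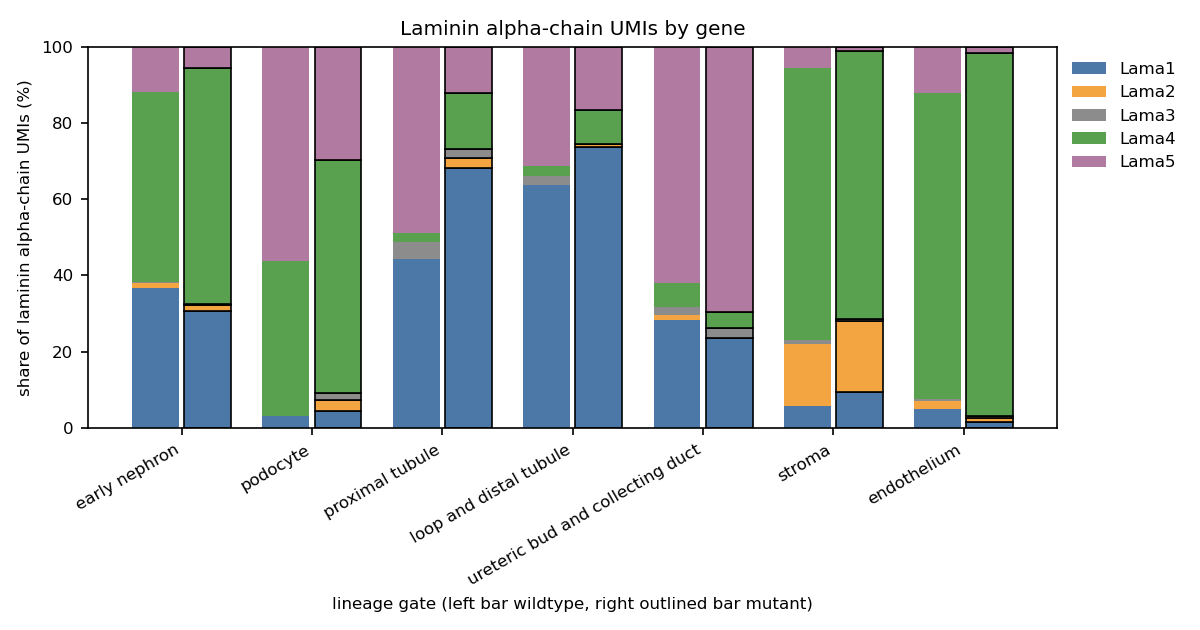
Share of laminin alpha-chain UMIs (percent) belonging to each of the 5 alpha-chain genes in the gates with at least 30 such UMIs in both genotypes, with the 2 libraries of a genotype pooled. Lama4 fills most of the stroma and endothelium bars, Lama5 most of the ureteric bud bars and Lama1 most of the loop bars.

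Of the beta chains, Lamb1, the partner in early laminins, was present in every renal gate. It was called higher only in loop and distal tubule in the 5-lineage contrast, where the libraries held 409, 298, 262 and 578 (wildtype 1, wildtype 2, mutant 1, mutant 2). The corresponding stromal levels were 109, 62.1, 70.9 and 132, all lower. The loop log2 difference was 1.53 ± 0.10. Lamb2, the chain of mature glomerular and vascular membranes, was called higher in stroma (0.59 ± 0.17) and lower in early nephron (-1.08 ± 0.21). The stromal call was lost without wildtype 2 (0.50, edgeR adjusted p 0.0932) or mutant 2 (0.54, 0.0844). Lamb3, an epidermal chain, had 22 UMIs in all.

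Of the gamma chains, Lamc1, the common one, was called higher in endothelium (0.51 ± 0.12) and ureteric bud (0.47 ± 0.12) and lower in stroma (-1.37 ± 0.11). The ureteric bud call was lost without wildtype 2 (0.43, edgeR adjusted p 0.0804) or mutant 2 (0.41, 0.0616) and in the wildtype libraries alone (0.26, 0.296). The 9-lineage contrast called Lamc1 higher in early nephron (0.80 ± 0.17), endothelium (1.17 ± 0.20), loop (1.003 ± 0.229) and ureteric bud (0.94 ± 0.19). Lamc3 had 76 UMIs, 18 of them in podocyte-gated cells of mutant 2 alone.

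The laminin-binding alpha chains Itga3 and Itga6 parted. Itga6 was called higher in loop and distal tubule (1.93 ± 0.14), endothelium (1.53 ± 0.13) and early nephron (0.63 ± 0.12) and lower in stroma (-3.92 ± 0.18). The early nephron call was lost when the contrast over 5 lineages was refitted on the wildtype libraries alone (0.38, edgeR adjusted p 0.0771). The wildtype contrast over more lineages called Itga6 higher in early nephron (0.50 ± 0.16, edgeR adjusted p 0.0164). Its loop levels were 242 and 123 in wildtype and 248 and 266 in mutant, against 7.35 to 8.35 in stroma. Itga3, the podocyte laminin receptor chain, stood at 84.4 and 56.1 in wildtype podocytes and 68.5 and 67.2 in mutant podocytes. The other wildtype lineages together held 5.48 and 4.94, so podocytes were 15.4-fold and 11.4-fold higher in the 2 wildtype libraries, from 8 and 10 podocyte UMIs. Ureteric bud, at 13.7 to 23.4, was called higher in both contrasts (1.96 ± 0.37 over 5 lineages). Itga7, a muscle laminin receptor, had 15 UMIs.

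The collagen-binding alpha chains were placed apart from each other. Itga2 had the largest endothelial difference of the 16 tested members: 72.3 and 31.2 in wildtype and 29.5 and 73.9 in mutant endothelium, against 3.53 and 1.43 in the other wildtype lineages. That is 20.5-fold and 21.9-fold higher in the 2 wildtype libraries, and the log2 difference over the 5 lineages was 4.85 ± 0.27. Ureteric bud, at 6.83 to 16.8, was called higher too (1.89 ± 0.41), and no Itga2 UMI was found in proximal tubule or immune cells.

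Itga1, the other main collagen IV receptor chain, was highest in proximal tubule among the lineages tested. Wildtype proximal tubule held 134 and 58.7 against 17.0 and 8.11 in the other lineages, 7.87-fold and 7.24-fold higher (log2 difference in the 9-lineage contrast 3.26 ± 0.34, edgeR adjusted p 2.71e-12). Mural cells, the smooth-muscle and pericyte gate, held 66.0 and 15.3 in wildtype and 226 and 175 in mutant. Those rest on 5, 2, 16 and 74 UMIs in 16, 27, 10 and 58 cells, too few for a test. Itga10 and Itga11, collagen receptors of cartilage and fibroblasts, had 47 and 63 UMIs.

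Of the alpha chains that bind fibronectin, VCAM-1 or tenascin, Itga9 (chr9:118606690-118901003, plus strand) was highest in stroma among the 5 lineages. Stromal levels were 111, 76.0, 60.6 and 106 in wildtype 1, wildtype 2, mutant 1 and mutant 2, against 2.40, 2.28, 0 and 2.74 in ureteric bud. The stromal log2 difference was 3.65 ± 0.17. Itga9 was also the single member called higher in nephron progenitors, at 30.8 and 30.1, by the equal-weight contrast; against all other lineages pooled the ratios were 0.675 and 1.08, so it stood apart from epithelia rather than from every lineage.

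Itga4, a leukocyte and mesenchymal receptor chain for VCAM-1 and fibronectin, was highest in immune cells among the 9 lineages tested in wildtype. There it stood at 87.6 and 84.1 in wildtype and 67.4 and 175 in mutant, against 8.36 and 5.40 in the other wildtype lineages. Mural cells held 26.4 and 23.0 in wildtype and 127 and 137 in mutant, from 2, 3, 9 and 58 UMIs, and were not tested. Stroma was called higher among the 5 lineages (2.18 ± 0.31). Itga5, the main fibronectin receptor chain, was endothelial (2.65 ± 0.31), and mutant 1 stood apart there, at 88.6 against 14.8, 19.1 and 23.0 in wildtype 1, wildtype 2 and mutant 2.

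Among the beta chains, Itgb6, which with the alpha-v chain forms an epithelial receptor that activates TGF-beta, was highest in proximal tubule (chr2:60598292-60722643, mm10, minus strand). Wildtype proximal tubule held 201 and 159 against 1.46 and 2.50 in the other lineages, which is 137-fold and 63.9-fold higher. In mutant proximal tubule it stood at 42.1 (1 UMI in 5 cells) and 130 (42 UMIs in 47 cells). Loop and distal tubule was called higher over the 5 lineages (2.75 ± 0.56), with 36 of its 45 UMIs in mutant 2.

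Itgb5, another partner of the alpha-v chain, was highest in podocytes in 3 of the 4 libraries. It stood at 253 and 123 in wildtype and 82.2 and 105 in mutant podocytes. In wildtype this was 30.3-fold and 14.6-fold above the other lineages (log2 difference in the 9-lineage contrast 4.26 ± 0.39, edgeR adjusted p 5.22e-14). Immune cells held 48.6, 59.4, 152 and 81.8, so in mutant 1 they lay above podocytes, from 9 and 6 UMIs. Itgb2, the leukocyte chain, had 22 UMIs, of which 15 lay in immune cells. Itgb3, Itgb4, Itgb7 and Itgb8 had 66, 61, 14 and 192 UMIs, and Itgb4, the hemidesmosome partner of Itga6, reached no more than 3.79 in any gate.

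**Figure D3:**
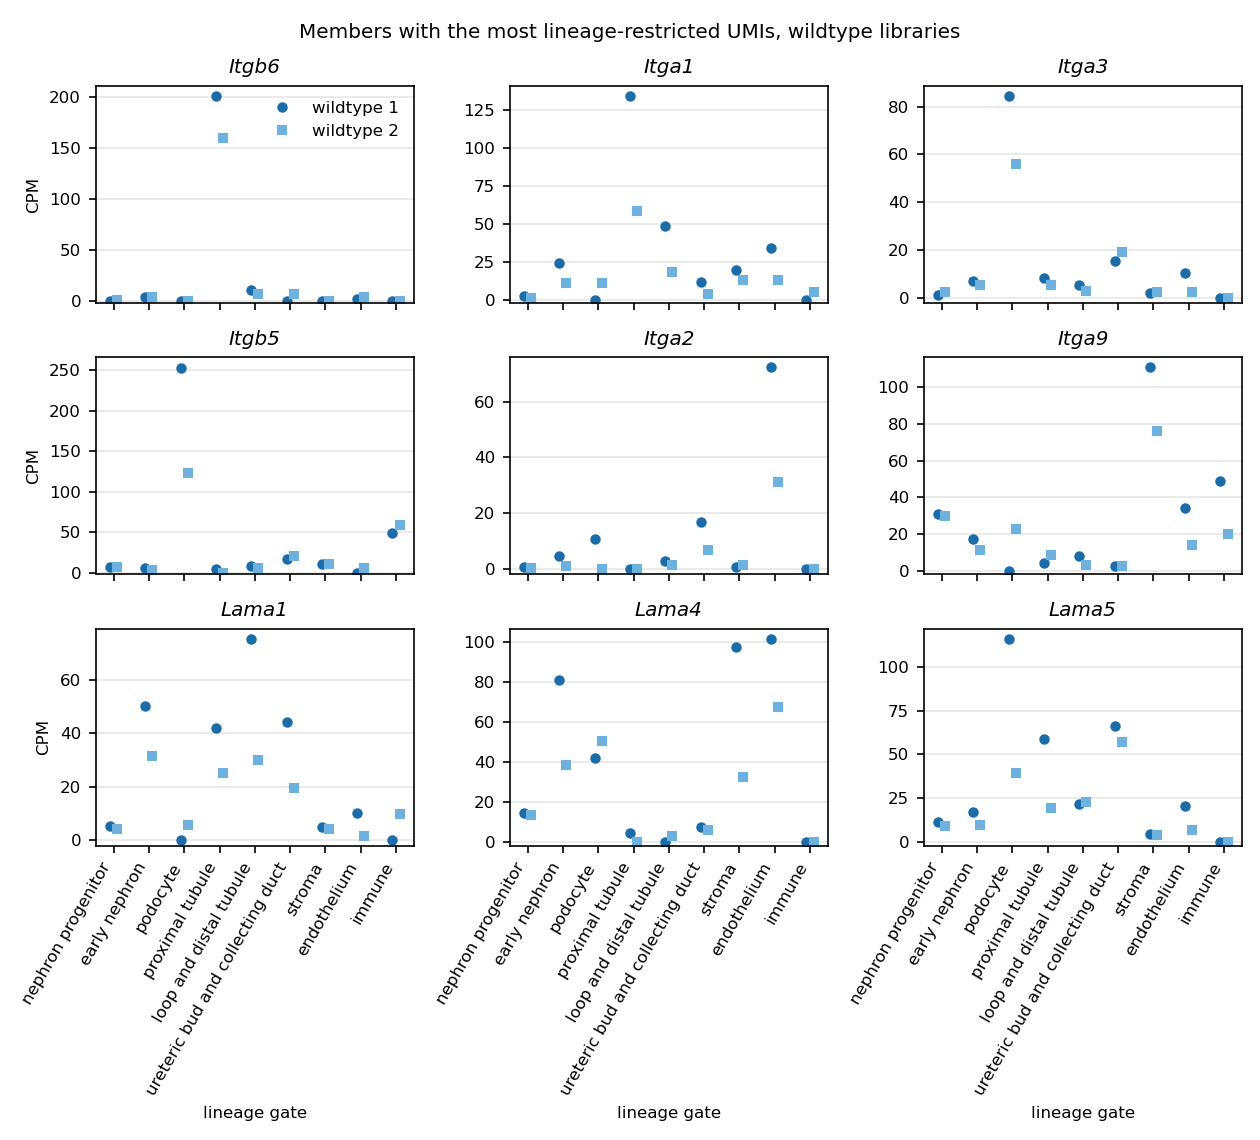
Level (CPM of a lineage's UMIs, linear axes) of 9 members in the 9 lineages tested in wildtype, with each point 1 library. Both points of Itgb6 stand alone in proximal tubule (201 and 159), those of Itga3 and Itgb5 in podocyte, and those of Itga2 in endothelium.

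Of the laminin chains, Lama1, Lamb1 and Lamc1 were called lower in nephron progenitors. Lama4 (0.87 ± 0.64), Lama5 (-0.04 ± 0.20) and Lamb2 (-0.22 ± 0.33) were not called there. Wildtype 1 and 2 held 41.0 and 29.5 of Lamb1 in progenitors against 158 and 111 in the other lineages, and 23.3 and 20.5 of Lamc1 against 71.4 and 58.2. Itga6 was lower as well, at 13.99 and 15.03 against 76.2 and 50.03. These 3 genes, Lama1 and Itga1 were the 5 called lower, with log2 differences from -1.13 ± 0.24 (Lamc1) to -2.99 ± 0.62 (Itga1).

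The profiles were also compared with each other over the 9 wildtype lineages, as Pearson's r of log2(CPM + 1), both libraries pooled. The points share libraries and cells, so r is a description. Among the close pairs were Lama5 with Itga3 (r = 0.885), Lamb1 with Lamc1 (0.794) and Itga1 with Itgb6 (0.792). Lama1 was least like Itga9 (-0.773).

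Mutant and wildtype libraries were then compared over all kept cells. No member was called, beside 1.32% of all 15777 genes (208 genes, 152 higher and 56 lower in mutants). Of the 28 members 25 passed the filter on low counts, and Itga7, Itgb2 and Itgb7 did not. At an unadjusted p under 0.05 there were 3 of 25 members by edgeR (9.51% of all genes) and 2 by DESeq2 (7.80%). The median log2 fold change of the 25 was 0.36, beside 0.01 over all genes. Of the 25, 21 had a log2 fold change above 0, beside 51.0% of all genes. Without mutant 2 these were 17 of 25, and without wildtype 2 they were 17 of 26. The median was 0.60 without wildtype 1 and 0.59 with no mitochondrial limit. Over all kept cells, fewer cells of a type and less RNA per cell cannot be told apart: stroma-gated cells made up 24.5% and 18.2% of wildtype and 41.6% and 42.2% of mutant cells, and nephron progenitors 17.5% and 15.9% against 0% and 0.254%.

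The 3 members at an unadjusted p under 0.05 were Lama2, Lama4 and Itga5. Lama2 stood at 5.69 and 2.93 TMM-scaled CPM in wildtype and 9.85 and 12.0 in mutant, with no overlap (log2 fold change 1.39 ± 0.42, edgeR adjusted p 0.119). Without wildtype 1 it passed the test (1.90, adjusted p 0.0441). Within stroma, where most of its UMIs lay, the values were 17.98 and 9.67 against 17.0 and 26.3, which overlap.

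Lama4 stood at 50.7 and 27.9 in wildtype and 50.9 and 98.7 in mutant (0.95 ± 0.38, edgeR adjusted p 0.368). Mutant 1 and wildtype 1 were nearly level, and mutant 2 alone was high. Itga5 stood at 6.01 and 5.41 in wildtype and 17.1 and 7.04 in mutant (1.01 ± 0.43, edgeR adjusted p 0.407), with mutant 1 alone high. Without mutant 2 it passed (1.59, adjusted p 0.0417).

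In 11 members both mutant libraries lay above both wildtype libraries, beside 20.3% of all genes, and in Itgb4 and Lama5, among others, both lay below, beside 19.3%. The 11 were Itga3, Itga4, Itga5, Itga6, Itga11, Itgb3, Itgb5, Itgb8, Lama2, Lama4 and Lamc1. Lama5 stood at 21.8 and 14.7 in wildtype and 12.2 and 10.7 in mutant (-0.68 ± 0.38, edgeR adjusted p 0.615), and Itga6 was 56.2 and 42.3 against 68.0 and 88.5 (0.68 ± 0.34, adjusted p 0.537).

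**Figure D4:**
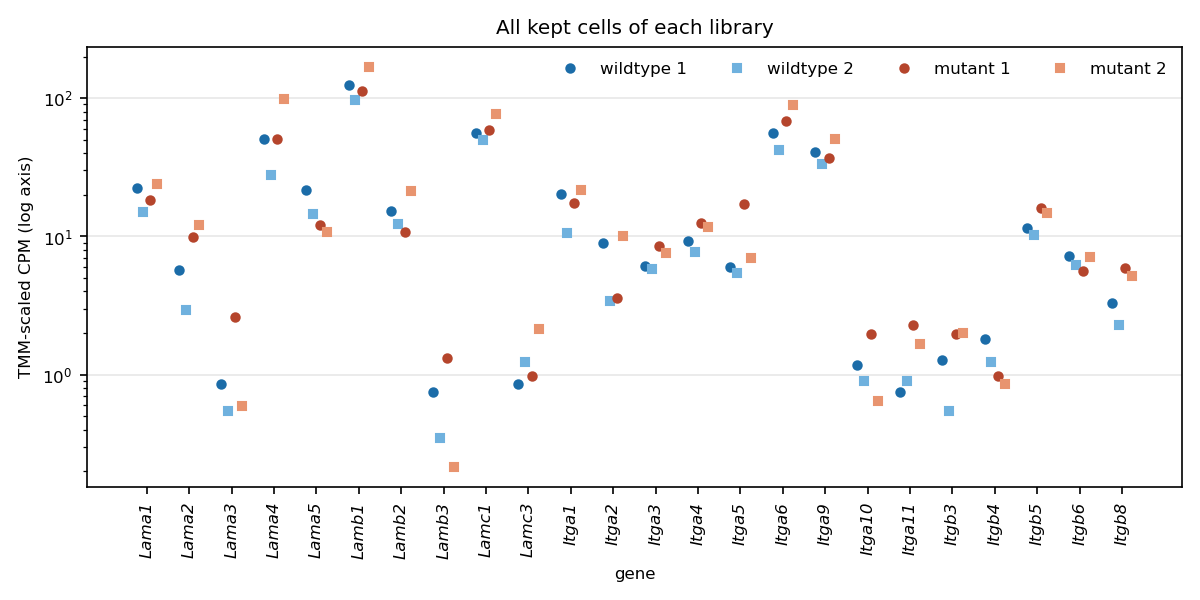
TMM-scaled CPM (log axis) of tested members over all kept cells, with each point 1 library. For most members the 4 points are within a few-fold of each other; Lama2 and Itgb8 have both mutant points above both wildtype points, and Itga5 has mutant 1 alone above the others.

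Within single lineages no member was called between genotypes. The tests covered 14 members in early nephron (0.0089% of genes called), 9 in endothelium (0.131%), 7 in loop and distal tubule (0.0681%), 14 in stroma (0.286%) and 9 in ureteric bud and collecting duct (0.0768%). Podocyte and immune cells, tested at a lower limit of 20 cells added after the data were seen, gave 0 called members of 3 and of 2 (0% of genes in each). Members at an unadjusted p under 0.05 numbered 2, 3, 0, 1 and 0 in the 5 lineages by edgeR, beside 3.998%, 4.81%, 4.09%, 6.84% and 7.12% of all genes. By DESeq2 they numbered 1, 2, 0, 0 and 0, and it called none either. The genes at that p by DESeq2 were 240 of 11230 fitted in early nephron, 158 of 8380 in endothelium and 111 of 7338 in loop. They were 516 of 11519 in stroma and 297 of 7810 in ureteric bud. In podocyte and immune cells none reached that p by edgeR. The standard errors ran from 0.33 to 0.92 on the log2 scale. Changes well above 1 standard error could also be missed: endothelial Lama4, at 1.13 ± 0.38, did not pass.

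In endothelium, Lama4 had the smallest p. It stood at 100 and 71.5 in wildtype and 160 and 206 in mutant, TMM-scaled (1.13 ± 0.38, edgeR adjusted p 0.558). Lamb1 also did not overlap, at 78.2 and 66.9 against 149 and 126 (0.90 ± 0.38, adjusted p 0.904). In all, 5 of 9 endothelial members had both mutant libraries above both wildtype libraries, beside 16.5% of genes; they were Lama4, Lamb1, Itga5, Itga6 and Itga9. For Itga5, mutant 2 stood at 21.7 beside 20.2 in wildtype 2, and mutant 1 at 99.4. None of the 9 had both mutant libraries below, beside 16.5% of genes. The endothelial markers themselves (12 of 12 with UMIs) summed to 3729 and 3633 CPM in these cells in wildtype and 4262 and 4855 in mutant, and the immune markers (12 of 12) to 14.8 and 26.0 against 34.5 and 45.1. Both lists were higher in the mutants without overlap. Of the kidney lineage lists, those lower without overlap were early nephron (12 of 12, 672 and 626 against 276 and 550), proximal tubule (12 of 12, 73.8 and 77.96 against 9.84 and 18.5), nephron progenitor (12 of 12, 51.7 and 71.9 against 44.3 and 46.0) and ureteric bud (9 of 12, 8.86 and 19.1 against 4.92 and 6.76). Stroma (54.6 and 107 against 78.7 and 107) and mural markers (118 and 116 against 143 and 92.0) overlapped. The part of the lists that moved in the member levels was not tested.

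In early nephron, Itga6 had the smallest p, at 78.7 and 64.1 in wildtype and 124 and 130 in mutant (0.84 ± 0.34, edgeR adjusted p 1). Non-overlapping higher values were found in 5 of 14 members, beside 15.8% of genes, and lower ones in 0, beside 14.9%. The 5 were Itga3, Itga6, Itgb5, Itgb6 and Lamc1. Itgb6, named for its p under 0.05, stood at 3.84 and 3.57 against 17.7 and 7.66. The mutant 1 value rests on 7 UMIs. In these cells the podocyte markers (12 of 12 with UMIs) summed to 114 and 131 CPM in wildtype and 234 and 250 in mutant, and the stroma markers (12 of 12) to 191 and 251 against 435 and 254. The nephron progenitor markers (12 of 12) were lower in the mutants, at 214 and 234 against 113 and 175, as were the ureteric bud markers (11 of 12), at 282 and 85.6 against 48.6 and 18.2. Their part in the member levels, of which Itga3 and Itgb5 were highest in wildtype podocytes, was not tested.

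In stroma, Lama1 had the smallest p. Its level was 4.90 and 4.23 in wildtype and 10.7 and 12.5 in mutant (1.38 ± 0.47, edgeR adjusted p 0.391), all of them below its early nephron levels. Stromal Lama5 lay at 4.36 and 4.23 against 1.79 and 1.496 (-1.44 ± 0.72, edgeR adjusted p 0.799), from 35 UMIs over all libraries. Higher values without overlap were found in 3 of 14 members (Itgb5, Itgb8 and Lama1), beside 17.6% of genes, and lower values in 3 (Itga1, Itga4 and Lama5), beside 17.3%. In stroma-gated cells the stroma markers (12 of 12 with UMIs) summed to 4861 and 3639 CPM in wildtype and 5850 and 7160 in mutant. Markers of 3 other kidney lineages were lower in the mutants without overlap: early nephron (12 of 12, 499.5 and 570.0 against 354 and 459), nephron progenitor (12 of 12, 277 and 189 against 73.3 and 79.2) and ureteric bud (12 of 12, 33.9 and 52.9 against 18.3 and 27.0). The loop and distal tubule markers (11 of 12) summed to 34.5 and 32.4 against 28.7 and 71.7. The part of these lists in the Lama1 and Lama5 levels was not tested.

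In ureteric bud and collecting duct, Lamc1 had the smallest p, at 83.1 and 93.1 in wildtype and 153 and 157 in mutant (0.81 ± 0.39, edgeR adjusted p 0.702). Lama5, Lamb1 and Lamb2 likewise had both mutant libraries higher, so 4 of 9 members did, beside 18.7% of genes, and 1 of 9 was lower without overlap, beside 19.6%. The mutant values rest on only 27 and 44 cells of this gate, beside 94 and 166 in wildtype. Among the marker lists in these cells, stroma (12 of 12 with UMIs, 21.6 and 68.3 CPM in wildtype against 117 and 82.2 in mutant), mural (10 of 12, 49.2 and 41.6 against 74.7 and 74.0) and proximal tubule (10 of 12, 13.2 and 18.2 against 65.4 and 35.6) were higher in the mutants. Early nephron markers (12 of 12) were lower, at 1186 and 793 against 350.3 and 499. Their part in the member levels was not tested. In loop and distal tubule, Itga6 had the smallest p (247 and 132 against 277 and 261, 0.52 ± 0.38, adjusted p 1) and was the 1 member of 7 without overlap upwards, beside 16.1% of genes; Lama5 was the 1 lower without overlap, beside 15.7%. Loop Lama5 stood at 22.0 and 24.5 in wildtype against 7.49 and 19.9 in mutant (-0.46 ± 0.67), and mutant 1 held only 25 loop cells. The Lama5 log2 fold change was 0.53 in ureteric bud, -0.65 in early nephron and -1.44 in stroma, none past the test. A test of the genotype effect across the 5 lineages gave Lama5 an edgeR adjusted p of 0.178. That interaction called 147 of 10811 genes and no member.

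Genes that work with integrins and laminins were read from 5 lists. None of 12 basement membrane partners (smallest p Col4a6, a collagen IV chain, 1.495 ± 0.502, edgeR adjusted p 0.184), 11 other laminin receptors (Dag1, dystroglycan, adjusted p 0.546) or 14 tested activators and adaptors (Tln2, a talin, adjusted p 0.186) was called. Of 5 tested alpha chains whose symbols fall outside the rule none was called (Itgam, adjusted p 0.592). Of 11 tested other integrin ligands, 2 were called higher in mutants, beside 152 of all 15777 genes. The lists were chosen with earlier results of these data known.

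Both are ligands of members above. Svep1 (chr4:58042442-58206859, minus strand), a matrix protein bound by the alpha 9 chain, stood at 7.84 and 3.87 in wildtype and 21.3 and 18.3 in mutant over all kept cells, TMM-scaled (1.78 ± 0.40, edgeR adjusted p 0.015). Vcam1 (chr3:116109949-116129688, minus strand), the adhesion ligand of the alpha 4 and alpha 9 chains, stood at 14.3 and 13.3 against 32.8 and 43.0 (1.47 ± 0.37, adjusted p 0.0337). The genotypes did not overlap in either gene.

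Of their UMIs, 414 of 557 (Svep1) and 823 of 1301 (Vcam1) lay in stroma-gated cells, whose share was larger in the mutants as given above. Within stroma the changes did not pass: Svep1 1.42 ± 0.39 (edgeR adjusted p 0.195) and Vcam1 0.71 ± 0.32 (0.705). Without wildtype 1 the stromal Svep1 change passed (1.835, adjusted p 0.0162). Vcam1 in early nephron differed by 1.496 ± 0.457 and did not pass (adjusted p 0.572). Their stromal levels were 19.8, 10.4, 32.7 and 45.04 CPM for Svep1 and 48.1, 37.0, 58.2 and 80.1 for Vcam1 in wildtype 1, wildtype 2, mutant 1 and mutant 2. The Svep1 call was lost without wildtype 2 (1.32, adjusted p 0.258). The Vcam1 call was lost with the replicate number as a block (1.46, adjusted p 0.106), with no filter on low counts (1.41, 0.13), and without wildtype 1 (1.51, 0.051), wildtype 2 (1.41, 0.13) or mutant 2 (1.26, 0.152). The receptors' genes, Itga9 and Itga4, did not pass in stroma: Itga9 -0.16 ± 0.33 and Itga4 -0.39 ± 0.40 (adjusted p 0.987 and 0.979). The Itga9 value was 0.06 without wildtype 1 and 0.08 without mutant 1.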

How the data were processed

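Drop-seq tables of 4 libraries were used. The authors deposited raw counts per gene and cell barcode, whole numbers with no normalization; Bowtie2 2.2.7 and mm10 are listed in the submitters' processing notes. The annotation, the use of strand and the collapsing of molecular identifiers are not given in the sources used here. Without known strand handling, Itga4, Itga7, Itgb4, Lama2, Lama3 and Lamc3, and likewise Svep1 and Vcam1, may share reads with a gene on the opposite strand, and Itga1 and Itga10 with one on the same strand.

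Barcodes needed at least 500 genes and at most 10% mitochondrial UMIs, and the 5% of each library with the highest Scrublet scores were left out (620; Scrublet's own threshold marked 10). Of 167 gating markers 164 were in the tables. Counts were summed per library and lineage and tested with edgeR 4.0.16 (TMM, filterByExpr, robust quasi-likelihood) in R 4.3.3, with Benjamini-Hochberg adjustment at 0.05; the code was tested on simulated data. DESeq2 1.42.0 was an alternative. Fold changes are mutant over wildtype. The members, marker lists, partner lists and naming rule were chosen with earlier results of these data known. Named are members over all kept cells; within a lineage or contrast, members past the test, or the member with the smallest p; and per partner list up to 3 called genes, or that with the smallest p. Others named were chosen after their values were seen. Libraries sharing a number deviated together only weakly (r = 0.088 across 15777 genes), and nothing in the labels pairs them. A member counted among the 28 is not reported here by name or value.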

Additional observations from a re-analysis of the deposited data

How the results depend on the processing

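No member was called within the 5 lineages under any alternative run, and over all kept cells only the leave-one-out fits changed the number called (0 to 1). Genes called over all kept cells ranged from 269 to 395 with 1 library left out, against 208; DESeq2 gave 192. With the replicate number as a block the fit called 160 genes and no member; the numbers do not pair the libraries, and only the Vcam1 call changed among the genes named. Members called higher ranged from 3 to 6 in stroma and from 5 to 9 in ureteric bud with 1 library left out. In stroma 9 were called with no filter on low counts, which adds Lama2, Itgb3, Itgb8 and Itga11 to those tested, and in ureteric bud 5 with the wildtype libraries only. The cause of the drop was not tested. In that 5-lineage refit of the wildtype libraries, Itga2, Itga4 and Lamc1 lost their ureteric bud calls. The 9-lineage contrast of the same libraries called Itga2 (3.11 ± 0.73) and Lamc1 (0.94 ± 0.19) higher there, but not Itga4. The stromal call of Itgb5 was lost without mutant 2, and that of Lamb2 without mutant 2 or wildtype 2. Both were lost in the 5-lineage refit of the wildtype libraries. The 9-lineage contrast called Lamb2 higher in stroma (0.84 ± 0.28), but not Itgb5. Across the single calls of members in the 5-lineage contrast, 39 refits lost the call and 484 held it. Between genotypes, 9 of 25 members over all kept cells changed sign under at least 1 alternative, as did 6 of 14 in early nephron, 3 of 9 in endothelium, 5 of 7 in loop, 6 of 14 in stroma and 4 of 9 in ureteric bud. At least 1000 genes per barcode or at least 4 markers left too few loop and ureteric bud cells, so the 5-lineage contrast was not run there. Leaving out 1 library leaves a genotype with a lone library, which is assumed to vary like the other genotype. Depth limits the low members: 12 of 28 were below the filter of the lineage contrast.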

Other observations

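Itgam, a leukocyte alpha chain outside the symbol rule, did not follow its partner Itgb2. It was counted at 65.8 to 197 CPM, libraries pooled, in every lineage gate, with 139 in stroma and 132 in early nephron, whereas Itgb2 stood at 27.4 in immune cells and at or below 0.389 in the other gates. Immune cells held 108 Itgam UMIs, 1.84% of those in gated cells. Over all kept cells Itgam stood at 148 and 95.9 in wildtype and 344 and 131 in mutant, so mutant 1 was the highest library. Overlap of Itgam exons with other genes was not examined. The source of its UMIs outside immune cells was not tested, so these counts may not be Itgam expression.

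Mutant 1 was also the highest library for Itga5 in endothelium (88.6), early nephron (13.9) and stroma (14.3). The other 3 libraries lay between 14.8 and 23.0, 2.33 and 4.57, and 7.92 and 8.67.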
